A study of Mus musculus with 12 samples.

Results

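The genes examined here are 10 that move calcium out of and into the intracellular store of granulosa cells. They are the 3 inositol trisphosphate (IP3) receptors Itpr1, Itpr2 and Itpr3, the ryanodine receptor Ryr2, the pumps Atp2a2, Atp2a3 and Atp2b1, the store sensors Stim1 and Stim2, and the plasma membrane channel Orai1. They were chosen by symbol, by way of the mouse annotation, and all 10 are among the 26382 genes listed in both deposited tables. RNA was sequenced from mouse mural granulosa cells (MGCs, which line the follicle wall) and cumulus cells (which surround the oocyte), in 12 libraries, 3 for each genotype of each cell type. All mice were immature females primed with equine chorionic gonadotropin (eCG), and cells were taken 2 h after human chorionic gonadotropin (hCG), which acts as luteinizing hormone. The sample titles say Control and Sphk1/2 knockout, and these groups are called WT and Sphk1/2gc-/- here, after the study. The study's WT mice were C57/BL6, and the titles give no strain. The Sphk1/2gc-/- mice carried Sphk1-/-, Sphk2 fl/fl and Fshr-Cre, so that Sphk1 was lost in the whole body and Sphk2 exons were removed by a Cre driven in granulosa cells by the Fshr promoter. Whether the controls were littermates, and the number of animals behind a library, are not given in the sources used here. The p-values below therefore measure the spread between libraries, which may be technical.

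Calcium in these cells is held in the endoplasmic reticulum. The SERCA pumps (Atp2a2 and Atp2a3) load it there from the cytosol, IP3 receptors let it out when phospholipase C makes IP3, and ryanodine receptors let it out in response to calcium itself. When the store empties, STIM proteins in its membrane open ORAI channels at the cell surface, and PMCA pumps such as Atp2b1 push calcium out of the cell. In the follicle, sphingosine kinases make sphingosine-1-phosphate, a lipid that can mobilize stored calcium, and calcium in cumulus cells takes part in the resumption of oocyte meiosis.

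The store genes occur as sets of paralogues, some of which hold genes both below and above 0.5 FPKM in cumulus cells. Itpr3 and Stim1 were below it there, while Itpr2 and Stim2 were not, as the values below show. The same held for Atp2a3, which was below it, and Atp2a2, which was not. The sequences upstream of the start are given for Itpr2, Itpr3, Stim1 and Stim2. Each has 250 bases ending just before the RefSeq start, from RefSeq on GRCm38.p6 and in the direction of the gene. Of the 10 genes, 8 matched an entry, and Itpr1 and Atp2a2 are named only. Capitals mark each match, on either strand, to the SP/KLF box GGGCGG, the CCAAT box CCAAT, the TATA box TATAAA, the cAMP response element TGACGTCA, the NR5A site AAGGTCA and the E-box CACGTG. The window of Itpr2 is chr6:146502224-146502473 on the minus strand, that of Itpr3 chr17:27057054-27057303 on the plus strand, that of Stim1 chr7:102267569-102267818 on the plus strand and that of Stim2 chr5:53998273-53998522 on the plus strand.
Itpr2: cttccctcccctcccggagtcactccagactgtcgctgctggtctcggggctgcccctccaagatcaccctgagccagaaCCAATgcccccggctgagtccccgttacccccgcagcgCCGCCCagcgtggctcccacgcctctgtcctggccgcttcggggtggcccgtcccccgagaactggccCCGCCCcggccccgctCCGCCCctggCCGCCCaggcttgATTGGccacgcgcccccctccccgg
Itpr3: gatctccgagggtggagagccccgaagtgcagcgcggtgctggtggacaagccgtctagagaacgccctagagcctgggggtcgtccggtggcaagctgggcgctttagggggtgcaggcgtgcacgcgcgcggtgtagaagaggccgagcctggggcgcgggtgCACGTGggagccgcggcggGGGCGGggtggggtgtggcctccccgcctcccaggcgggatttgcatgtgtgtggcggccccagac
Stim1: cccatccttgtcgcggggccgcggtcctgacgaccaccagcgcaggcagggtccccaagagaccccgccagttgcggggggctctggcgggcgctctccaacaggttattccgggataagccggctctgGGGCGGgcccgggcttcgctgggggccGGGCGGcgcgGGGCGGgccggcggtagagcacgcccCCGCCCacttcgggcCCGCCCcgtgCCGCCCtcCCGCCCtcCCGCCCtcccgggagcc
Stim2: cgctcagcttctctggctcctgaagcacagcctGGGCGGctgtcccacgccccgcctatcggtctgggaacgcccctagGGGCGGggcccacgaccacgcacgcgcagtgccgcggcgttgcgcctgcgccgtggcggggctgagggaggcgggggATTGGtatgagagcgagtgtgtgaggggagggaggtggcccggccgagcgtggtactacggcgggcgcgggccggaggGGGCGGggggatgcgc
The SP/KLF box was found 8 times upstream of Stim1, 4 times upstream of Itpr2, 3 times upstream of Stim2 and 1 time upstream of Itpr3, and 32.7% of all 32851 mouse promoter windows of this length hold at least 1. Itpr2 had 2 CCAAT boxes and Stim2 had 1, against 33.8% of all windows with at least 1, and Itpr3 had 1 E-box, which 6.02% of windows hold. None of the 4 windows held the TATA box (12.4% of all windows), the cAMP response element (1.55%) or the NR5A site (4.08%), and no matches overlapped each other. All 4 were rich in CpG, with 22 in Itpr2, 25 in Itpr3, 31 in Stim1 and 30 in Stim2, where the median window has 6 and the upper quartile is 16. The SP/KLF box itself holds 1 CpG. Itpr3 and Stim1, which were low in cumulus cells, thus held the fewest and the most of these boxes among the 4, and a match is not a bound site.

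The libraries were examined before the genes were compared. Values are FPKM, that is fragments divided by the length of the exons and by the size of the library. Because FPKM multiplied by exon length fell on whole steps for most values under 60 reads, the reads behind low values could be recovered, and the totals were 16100306 to 19761529 reads per library. One WT cumulus library, number 3, listed 27541 genes above 0, against 18788 to 19289 in the other cumulus libraries, and Sphk1/2gc-/- MGC library 3 correlated at 0.912 to 0.939 with the other MGC libraries, where pairs of the others reached 0.986. Over the whole gene, Sphk1 ranged from 0.460 to 1.88 FPKM in WT MGCs and from 0.104 to 0.557 FPKM in Sphk1/2gc-/- ones. In cumulus cells Sphk1 goes against the labels, since libraries labelled Sphk1/2gc-/- had 0.0778, 0.456 and 0.557 FPKM where WT had 0.0699 to 0.0954. The range of Sphk2 in those libraries, 0.434 to 0.752 FPKM, overlapped that in WT cumulus cells, 0.403 to 0.602 FPKM, and in MGCs the ranges were 5.18 to 5.86 (WT) and 4.51 to 6.29 FPKM. Exons left in place by either allele count in these values, so they do not check the deletion, and the cumulus groups below rest on the labels. All 9 granulosa markers were listed in every group, with sums of 9202 to 15341 FPKM in WT MGCs and 2876 to 3988 FPKM in WT cumulus cells. The 4 mural markers summed to 1415 to 1723 FPKM in WT MGCs and 46.9 to 109 FPKM in WT cumulus cells, but the 6 cumulus markers were lower in WT cumulus cells (276 to 607 FPKM) than in WT MGCs (913 to 1116 FPKM).

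In WT MGCs the most abundant of the 10 transcripts per length was that of the pump SERCA2 and the least abundant that of the ryanodine receptor. Atp2a2 was at 99.4 ± 16.8 FPKM (SD, n = 3). Atp2b1, the plasma membrane pump PMCA1, followed at 13.4 ± 0.739 FPKM, and Itpr1 at 12.8 ± 1.73 FPKM. Atp2b1 and Itpr1 were not separated, since their ranges overlapped (12.6 to 14.0 and 10.9 to 14.1 FPKM). Stim2, the sensor that responds to small losses from the store, was at 8.39 ± 1.41 FPKM, and Stim1 at 4.64 ± 0.312 FPKM. Orai1, Itpr2 and Atp2a3 (SERCA3) followed at 3.58 ± 0.510, 2.74 ± 0.411 and 2.04 ± 0.838 FPKM, and each overlapped the next. Itpr3 was at 1.43 ± 0.0826 FPKM and Ryr2 at 0.475 ± 0.0334 FPKM.

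In WT cumulus cells Atp2a2, Atp2b1 and Stim2 led the order, with 46.4 ± 4.46, 8.40 ± 0.611 and 5.19 ± 0.879 FPKM (SD, n = 3). Orai1, Itpr2 and Itpr1 lay close together at 1.24 ± 0.247, 1.03 ± 0.0825 and 0.926 ± 0.0760 FPKM, and the neighbours in that order overlapped. Itpr1, near the top of the order in MGCs, was thus below Itpr2 here, at 0.829 to 0.975 times the Itpr2 value of the same library. Stim1 was at 0.334 ± 0.00666 FPKM, which is 56, 61 and 62 reads. Itpr3, Atp2a3 and Ryr2 were lowest and overlapped each other, and their highest WT values (0.146, 0.140 and 0.0692 FPKM) were all in library 3, the one that lists more genes than the rest. Without that library their WT cumulus values were at most 0.0898, 0.0105 and 0.0290 FPKM.

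**Figure D1:**
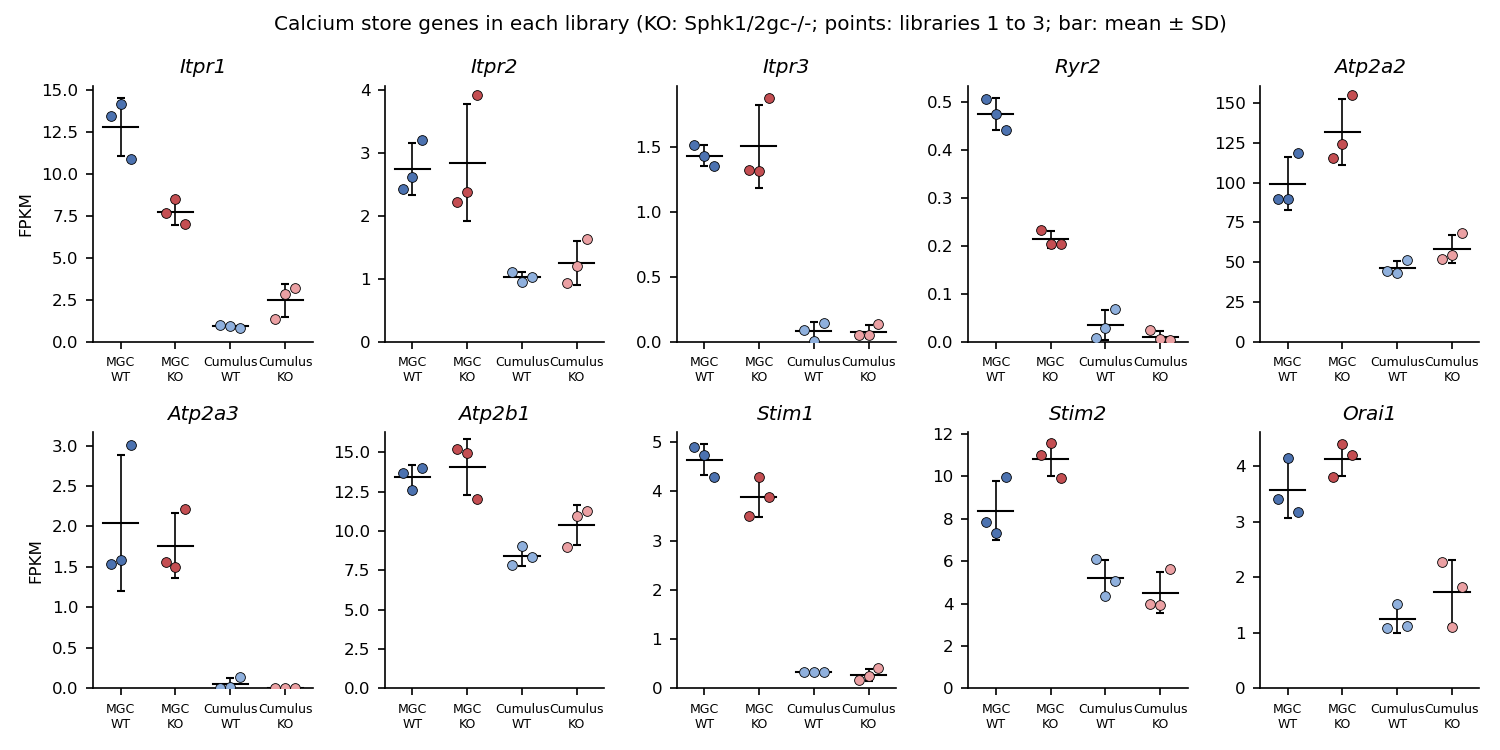
FPKM of each gene (vertical axes, each from 0) in the 12 libraries, by cell type and genotype, where KO stands for Sphk1/2gc-/-, points are libraries 1 to 3 and bars the mean ± SD of 3. Itpr1 is lower in all 3 KO than in all 3 WT libraries of MGCs (7.00 to 8.52 against 10.9 to 14.1 FPKM) and higher in all 3 KO than in all 3 WT libraries of cumulus cells (1.37 to 3.20 against 0.852 to 1.00 FPKM).

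The first comparison was that of the cell types in WT mice. All 9 genes that could be tested were lower in cumulus cells than in MGCs at a limma adjusted p of 0.05 or less, where 52.5% of 15869 genes were, and 6 were also lower by 2-fold or more, where 33.3% of all genes were. The test was limma on log2(FPKM + 1) over all 12 libraries, with Benjamini-Hochberg adjustment over all genes, and its differences understate those of low genes. The median over the 9 genes is to be read beside the median of all genes, which was itself −0.54 on this scale and moved to −0.16 after median-ratio scaling of the libraries. Differences between the cell types are therefore also given relative to that median, as deposited and after scaling. Ryr2 was not tested, since its mean was below 0.5 FPKM in every group. Itpr3, Atp2a3 and Stim1, all among the 6, entered the test only through the MGC groups. Their cumulus means were below 0.5 FPKM in both genotypes. Being lower in cumulus cells was thus a condition of their entry, and their direction is not a separate result.

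Itpr1, the IP3 receptor that prevailed in MGCs, had 13.4, 14.1 and 10.9 FPKM in libraries 1 to 3 of WT MGCs, against 1.00, 0.923 and 0.852 FPKM in WT cumulus cells. The groups were far apart, with a ratio of means of 13.8 and a log2 difference of −2.84 (SE 0.201, limma adjusted p = 1.09e-07), which is −2.29 relative to the median gene and −2.13 relative to it after scaling. Itpr3 had 1.52, 1.43 and 1.35 FPKM in WT MGCs, against 0.0898, 0.00619 and 0.146 FPKM in WT cumulus cells, a log2 difference of −1.17 (SE 0.124, limma adjusted p = 3.35e-06), which is −0.63 relative to the median gene and −0.76 relative to it after scaling. After scaling Itpr3 itself was at −0.93, short of 2-fold. Itpr2 differed less, by −0.88 (SE 0.183, limma adjusted p = 0.000882), from 2.42, 2.61 and 3.21 FPKM to 1.11, 0.947 and 1.03 FPKM. Relative to the median gene Itpr2 was at −0.34, and at −0.26 relative to it after scaling. The makeup of the IP3 receptor transcripts differed too. Itpr1 made up 70.4% to 77.8% of the summed IP3 receptor FPKM in WT MGC libraries and 42.1% to 49.2% in WT cumulus libraries, while Itpr2 made up 13.9% to 20.8% and 50.4% to 50.7%. The exons of Itpr1 overlap those of Gm44040 and Gm44101, and those of Itpr3 overlap Itpr3os and Mir7677, so that reads of these neighbours cannot be told apart where the strand was not used.

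Ryr2, which releases calcium in response to calcium and is best known from heart muscle, had 241, 230 and 214 reads in WT MGCs and 4, 15 and 35 reads in WT cumulus cells. Its ratio of mean FPKM was 13.3 between the cell types. The lowest of the cumulus counts is close to the limit that 0 reads would allow, which is 3 reads.

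Among the store sensors, Stim1 and Stim2 parted. Stim1, which couples an emptied store to ORAI channels, had 4.89, 4.75 and 4.29 FPKM in WT MGCs, against 0.335, 0.327 and 0.340 FPKM in WT cumulus cells. That is a ratio of means of 13.9 and a log2 difference of −2.08 (SE 0.129, limma adjusted p = 3.65e-08), or −1.54 relative to the median gene and −1.51 relative to it after scaling. Stim2 was at 7.87, 7.31 and 9.98 FPKM against 6.12, 4.38 and 5.06 FPKM, with a log2 difference of −0.60 (SE 0.170, limma adjusted p = 0.00654). After scaling, the sign of Stim2 turned to 0.041 (limma adjusted p = 0.854). Stim1 made up 30.1% to 39.4% of the summed Stim1 and Stim2 FPKM in WT MGCs and 5.19% to 6.95% in WT cumulus cells. Orai1, the channel both sensors open, had 3.41, 4.15 and 3.18 FPKM in WT MGCs, against 1.08, 1.53 and 1.12 FPKM in WT cumulus cells, a log2 difference of −1.03 (SE 0.175, limma adjusted p = 0.000188). Its difference was −0.49 relative to the median gene and −0.37 relative to it after scaling. After scaling Orai1 itself was at −0.53 (limma adjusted p = 0.0141), short of 2-fold. It was also short of 2-fold without WT MGC library 2 (−0.94), WT cumulus library 1 (−0.98) or WT cumulus library 3 (−0.99). The exons of Orai1 overlap those of Gm2479.

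Among the pumps, Atp2a3 differed most. Atp2a3, the SERCA3 isoform known from blood cells, platelets and epithelia, had 1.54, 1.58 and 3.01 FPKM in WT MGCs (134, 140 and 268 reads) and had 0, 1 and 13 reads in WT cumulus cells, a log2 difference of −1.50 (SE 0.179, limma adjusted p = 9.43e-06). Atp2a2 had 89.5, 89.9 and 118.8 FPKM in WT MGCs, against 44.2, 43.5 and 51.6 FPKM in WT cumulus cells, and Atp2b1 had 13.7, 12.6 and 14.0 FPKM against 7.81, 9.03 and 8.37 FPKM. Their log2 differences of −1.07 (SE 0.169, limma adjusted p = 0.000103) and −0.62 (SE 0.137, limma adjusted p = 0.00136) did not hold after scaling, where Atp2a2 was at −0.34 (limma adjusted p = 0.0795) and Atp2b1 turned to 0.057. SERCA2 FPKM per FPKM of PMCA1 was 6.54 to 8.47 in WT MGCs and 4.82 to 6.16 in WT cumulus cells, and SERCA2 FPKM per summed IP3 receptor FPKM was 4.94 to 7.71 in WT MGCs and 20.1 to 25.5 in WT cumulus cells. Neither ratio overlapped between the cell types. The exons of Atp2a2 overlap those of Gm43361.

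Transcripts of other cell types moved with this comparison. In WT MGCs the 8 leukocyte markers summed to 163 to 310 FPKM, the 5 endothelial markers to 10.7 to 14.3 FPKM, the 5 smooth muscle and pericyte markers to 53.1 to 63.2 FPKM, the 5 theca and stroma markers to 122 to 271 FPKM, the 4 erythrocyte and platelet markers to 234 to 362 FPKM and the 7 oocyte markers to 35.1 to 87.5 FPKM. In WT cumulus cells the same sums were 4.87 to 54.9, 0.276 to 0.919, 5.80 to 24.2, 11.1 to 36.0, 0.424 to 21.5 and 1.94 to 4.78 FPKM, with Tagln and Ppbp at 0 in all 3 libraries. Their part in the higher levels of Atp2a3, Ryr2, Itpr1, Itpr3 and Stim1 in MGCs was not tested. In RNA from many cells, fewer cells of a type and less RNA per cell cannot be told apart.

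**Figure D2:**
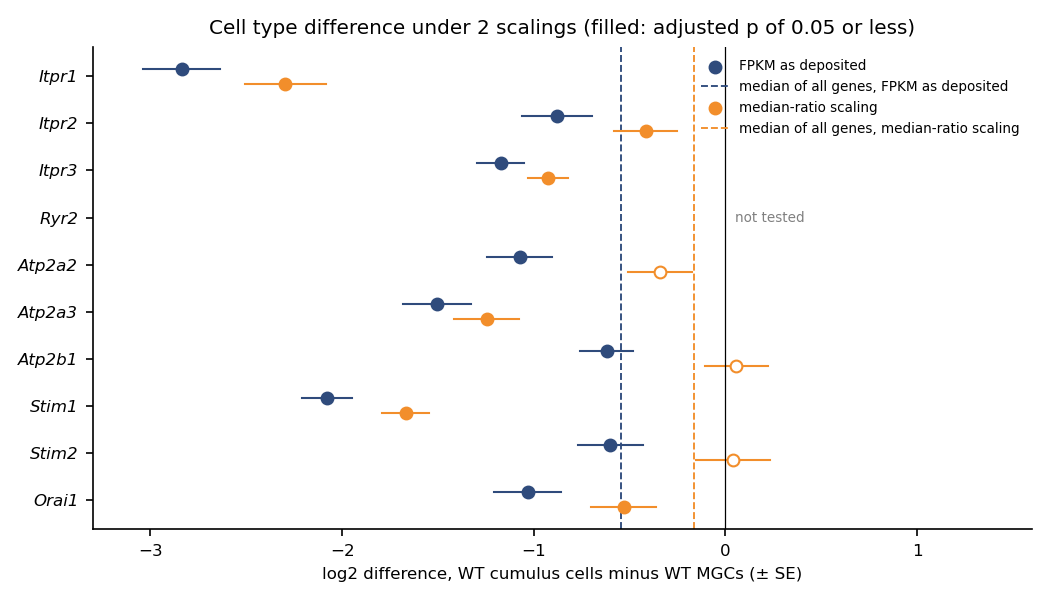
Log2 difference of each gene between WT cumulus cells and WT MGCs (horizontal axis, log2(FPKM + 1), bars ± SE), from FPKM as deposited and after median-ratio scaling, with dashed lines at the median of all genes. Itpr1 and Stim1 lie far below both medians (−2.84 and −2.08 as deposited, −2.30 and −1.67 after scaling), whereas Atp2b1 and Stim2 lie next to the median as deposited and just above 0 after scaling.

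The second comparison was that of Sphk1/2gc-/- and WT MGCs, which asks whether loss of sphingosine kinases changes these genes in the follicle wall. Of the 9 genes tested, 0 passed at a limma adjusted p of 0.05, where 0.0393% of 15279 genes did in either direction, and the count at an unadjusted p of 0.05 was 1, Itpr1, where 9.2% of all genes were. The groups did not overlap for 1 of the 9 genes, again Itpr1, where 16.9% of all genes did not. The median log2 difference of the 9 genes was 0.035, against −0.0034 for all genes.

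Itpr1 had 7.68, 8.52 and 7.00 FPKM in Sphk1/2gc-/- MGCs, against 13.4, 14.1 and 10.9 FPKM in the WT libraries. Every Sphk1/2gc-/- library lay below every WT library, with a ratio of means of 0.603. The log2 difference was −0.66 (SE 0.151, 95% interval −1.02 to −0.30, limma adjusted p = 0.257). Without Sphk1/2gc-/- library 3 the difference was −0.60 (limma adjusted p = 0.101), and over libraries 1 and 2 of each genotype alone it was −0.70 (SE 0.0812, limma adjusted p = 0.0133), in a setting where 16.1% of 15433 genes passed. In the same libraries Itpr2 had 2.22, 2.38 and 3.91 FPKM and Itpr3 had 1.33, 1.31 and 1.88 FPKM, with log2 differences of 0.015 (95% interval −0.49 to 0.52) and 0.035 (95% interval −0.35 to 0.42). For both, the highest Sphk1/2gc-/- value was in library 3, and without it the signs turned to −0.18 and −0.069. The share of Itpr1 in the summed IP3 receptor FPKM was 68.4%, 69.7% and 54.8% in Sphk1/2gc-/- MGCs, below all 3 WT libraries (77.4%, 77.8% and 70.4%), and the sum itself was 11.2 to 12.8 FPKM against 15.4 to 18.2 FPKM. Each of these had an exact two-sided permutation p of 0.1, the smallest that 3 libraries against 3 allow, and 0.171 after adjustment over the 12 such comparisons made.

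Ryr2 had 0.234, 0.203 and 0.204 FPKM in Sphk1/2gc-/- MGCs, against 0.508, 0.476 and 0.441 FPKM in the WT libraries. The groups were apart, with 214 to 241 reads in WT against 99 to 114 reads and a ratio of WT to Sphk1/2gc-/- means of 2.22. As both means were below 0.5 FPKM it was not part of the test above. The exact two-sided permutation p was again 0.1, and with pseudocount and filter both at 0.1 FPKM, a setting chosen after seeing the data, the log2 difference was −0.87 (SE 0.331, limma adjusted p = 0.561).

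The pumps and the store entry genes gave no call in MGCs. Atp2a2 was at 115.6, 124.1 and 155.0 FPKM in Sphk1/2gc-/- MGCs against 89.5, 89.9 and 118.8 FPKM in WT, where WT library 3 overlapped, and its log2 difference was 0.40 (95% interval −0.014 to 0.82, limma adjusted p = 0.551). Stim2 was at 11.0, 11.6 and 9.95 FPKM against 7.87, 7.31 and 9.98 FPKM, a log2 difference of 0.34 (95% interval −0.023 to 0.71, limma adjusted p = 0.563). For both, the overlap came from WT library 3. Within pairs of the same number Atp2a2 was higher in Sphk1/2gc-/- MGCs in all 3, and with the replicate number as a block its SE was 0.113 (limma unadjusted p = 0.0150, adjusted p = 0.341). Over libraries 1 and 2 alone, Atp2a2 (0.41, limma adjusted p = 0.0203) and Stim2 (0.52, limma adjusted p = 0.0217) passed, as 16.1% of all genes did. Stim1 was at 3.49, 4.30 and 3.88 FPKM against 4.89, 4.75 and 4.29 FPKM (log2 difference −0.21, 95% interval −0.55 to 0.14), and Orai1 at 3.80, 4.40 and 4.19 FPKM against 3.41, 4.15 and 3.18 FPKM (0.17, 95% interval −0.20 to 0.54). Atp2a3 at 1.56, 1.50 and 2.22 FPKM and Atp2b1 at 15.2, 15.0 and 12.0 FPKM overlapped WT widely, with log2 differences of −0.12 (95% interval −0.67 to 0.44) and 0.057 (95% interval −0.27 to 0.38).

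Ratios of pump to channel transcripts within a library were compared as well. SERCA2 FPKM per summed IP3 receptor FPKM was 5.15, 4.94 and 7.71 in WT MGCs and 10.3, 10.2 and 12.1 in Sphk1/2gc-/- MGCs, and the share of Stim1 in both sensors was 38.3%, 39.4% and 30.1% against 24.1%, 27.1% and 28.1%. Neither ratio overlapped between the genotypes (exact two-sided permutation p = 0.1 each, adjusted 0.171), whereas SERCA2 per PMCA1 did overlap, at 6.54 to 8.47 against 7.60 to 12.9. These ratios do not depend on how libraries are scaled against each other. Lower in Sphk1/2gc-/- MGCs, also without overlap, were the sums of the leukocyte markers (21.6 to 114 FPKM against 163 to 310), the endothelial markers (7.63 to 9.03 against 10.7 to 14.3), the smooth muscle and pericyte markers (30.2 to 41.6 against 53.1 to 63.2) and the mural granulosa markers (427 to 921 against 1415 to 1723). Gene by gene, all 5 endothelial markers were lower without overlap, but 2 of 8 leukocyte markers (S100a8 and S100a9), 2 of 5 smooth muscle and pericyte markers (Acta2 and Rgs5) and 2 of 4 mural granulosa markers (Star and Cyp11a1). Over all 15279 genes tested in MGCs, 16.9% did not overlap, in either direction. Adgre1, a macrophage marker, had 4.25, 5.24 and 0.614 FPKM in Sphk1/2gc-/- MGCs against 0.969 to 2.49 FPKM in WT, and Nppc had 51.6 to 89.3 FPKM against 45.0 to 73.4 FPKM. Their part in the lower values of Itpr1 and Ryr2 was not tested.

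**Figure D3:**
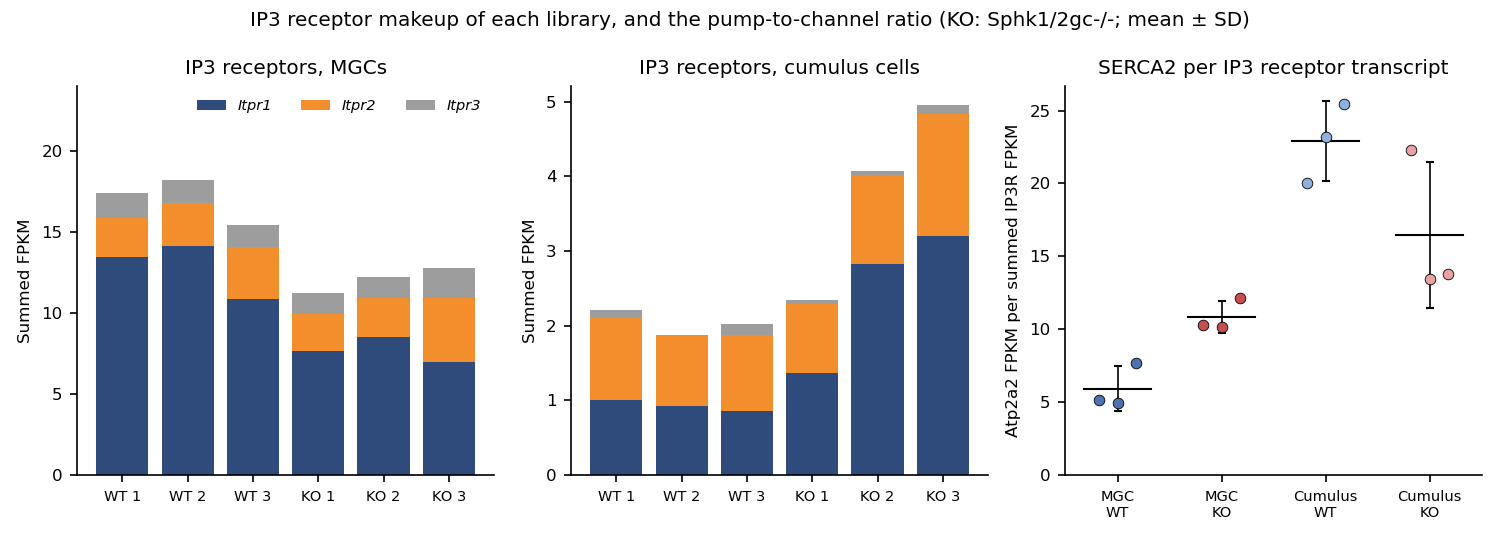
Summed FPKM of the 3 IP3 receptors in each MGC and cumulus library (left and middle, stacked by gene, axes from 0) and Atp2a2 FPKM per summed IP3 receptor FPKM (right, points are libraries, bars mean ± SD of 3), where KO stands for Sphk1/2gc-/-. The Itpr1 part is smaller in all 3 KO than in all 3 WT MGC libraries (54.8% to 69.7% of the sum against 70.4% to 77.8%) and larger in all 3 KO than in all 3 WT cumulus libraries (58.2% to 69.3% against 42.1% to 49.2%), and the ratio is higher in KO than in WT MGCs (10.2 to 12.1 against 4.94 to 7.71).

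The third comparison was that of the genotypes in cumulus cells, which touch the oocyte. Of the 10 genes, 6 were tested, and Itpr3, Ryr2, Atp2a3 and Stim1 were below the limit of 0.5 FPKM in both genotypes. One of the 6, Itpr1, was higher at a limma adjusted p of 0.05 or less, where 9.66% of 12205 genes were higher and 22.3% passed in either direction. None of the 6 reached a fold change of 2 on this scale as well, where 8.04% of all genes did, and the count at an unadjusted p of 0.05 was 1, where 38.2% of all genes were. The groups did not overlap for 2 of the 6 genes, Itpr1 and Atp2a2, where 42.3% of all genes did not.

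Itpr1 had 1.37, 2.82 and 3.20 FPKM in cumulus libraries with the Sphk1/2gc-/- label, against 1.00, 0.923 and 0.852 FPKM in WT. All 3 of these were higher than WT, library 1 by the least, with a ratio of means of 2.66. Itpr1 rose by 0.80 on the log2 scale (SE 0.219, 95% interval 0.30 to 1.31, limma adjusted p = 0.0342). The adjusted p was 0.0575 when the replicate number was fitted as a block and 0.124 with no filter on low values, and of the 6 fits without 1 library only that without Sphk1/2gc-/- library 1 passed (1.06, limma adjusted p = 0.00259, the others up to 0.112). That Itpr1 passed the adjusted p thus rests on the full set of libraries and on the filter, while the direction was the same in all 12 alternatives. Itpr2 had 0.929, 1.20 and 1.63 FPKM in those libraries, against 1.11, 0.947 and 1.03 FPKM in WT, a log2 difference of 0.14 (95% interval −0.22 to 0.50). Itpr1 took 58.2%, 69.3% and 64.5% of the summed IP3 receptor FPKM in the libraries labelled Sphk1/2gc-/-, above all WT libraries (45.5%, 49.2% and 42.1%), and the sum was 2.35 to 4.96 FPKM against 1.88 to 2.21 FPKM (exact two-sided permutation p = 0.1 each, adjusted 0.171).

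Of the pumps, Atp2a2 had 52.3, 54.6 and 68.4 FPKM in cumulus libraries with the Sphk1/2gc-/- label, against 44.2, 43.5 and 51.6 FPKM in WT, a log2 difference of 0.32 (95% interval −0.054 to 0.69, limma adjusted p = 0.188). Atp2b1 was at 8.96, 11.0 and 11.3 FPKM against 7.81, 9.03 and 8.37 FPKM (0.27, 95% interval −0.071 to 0.62, limma adjusted p = 0.218). SERCA2 per PMCA1 was close in both genotypes, at 4.98 to 6.06 and 4.82 to 6.16. SERCA2 per summed IP3 receptor FPKM was 22.3, 13.4 and 13.8 in these libraries against 20.1, 23.2 and 25.5 in WT, where library 1 overlapped (exact two-sided permutation p = 0.2). Atp2a3 had 1, 0 and 0 reads against 0, 1 and 13, so no fold change is given.

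Of the store entry genes, Orai1 had 2.27, 1.10 and 1.82 FPKM in libraries with that label, against 1.08, 1.53 and 1.12 FPKM in WT (log2 difference 0.27, 95% interval −0.17 to 0.70, limma adjusted p = 0.344), and Stim2 had 3.99, 3.91 and 5.64 FPKM against 6.12, 4.38 and 5.06 FPKM (−0.17, 95% interval −0.59 to 0.25, limma adjusted p = 0.527). Both overlapped. Stim1 had 33, 50 and 81 reads against 56, 61 and 62 reads, Itpr3 was at 0.0532, 0.0507 and 0.133 FPKM against 0.0898, 0.00619 and 0.146 FPKM, and Ryr2 had 13, 3 and 2 reads against 4, 15 and 35. All 3 overlapped too, and no difference between the genotypes was detectable in them at this depth. The 6 cumulus markers summed to 1032 to 1251 FPKM in the libraries labelled Sphk1/2gc-/- against 276 to 607 FPKM in WT, and the 9 granulosa markers to 2520 to 2864 against 2876 to 3988 FPKM. Of these, 3 of 6 were higher and 5 of 9 lower without overlap. Each such marker count here is to be read beside all 12205 tested genes, of which 42.3% did not overlap. The part of these markers in the Itpr1 difference was not tested. Leukocyte sums overlapped (6.91 to 52.3 against 4.87 to 54.9 FPKM), but 2 of 8 leukocyte markers (S100a8 and S100a9) were lower without overlap. Endothelial markers were near 0 in both, with Tek at 0 in all 3 libraries labelled Sphk1/2gc-/-. Their sums were lower there without overlap (0.176 to 0.262 against 0.276 to 0.919 FPKM), as were the oocyte sums (1.20 to 1.61 against 1.94 to 4.78 FPKM). Gene by gene this held for 1 of 5 endothelial and 3 of 7 oocyte markers. The mural, theca and stroma, smooth muscle and pericyte, and erythrocyte and platelet sums overlapped. The part of these markers was not tested either.

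**Figure D4:**
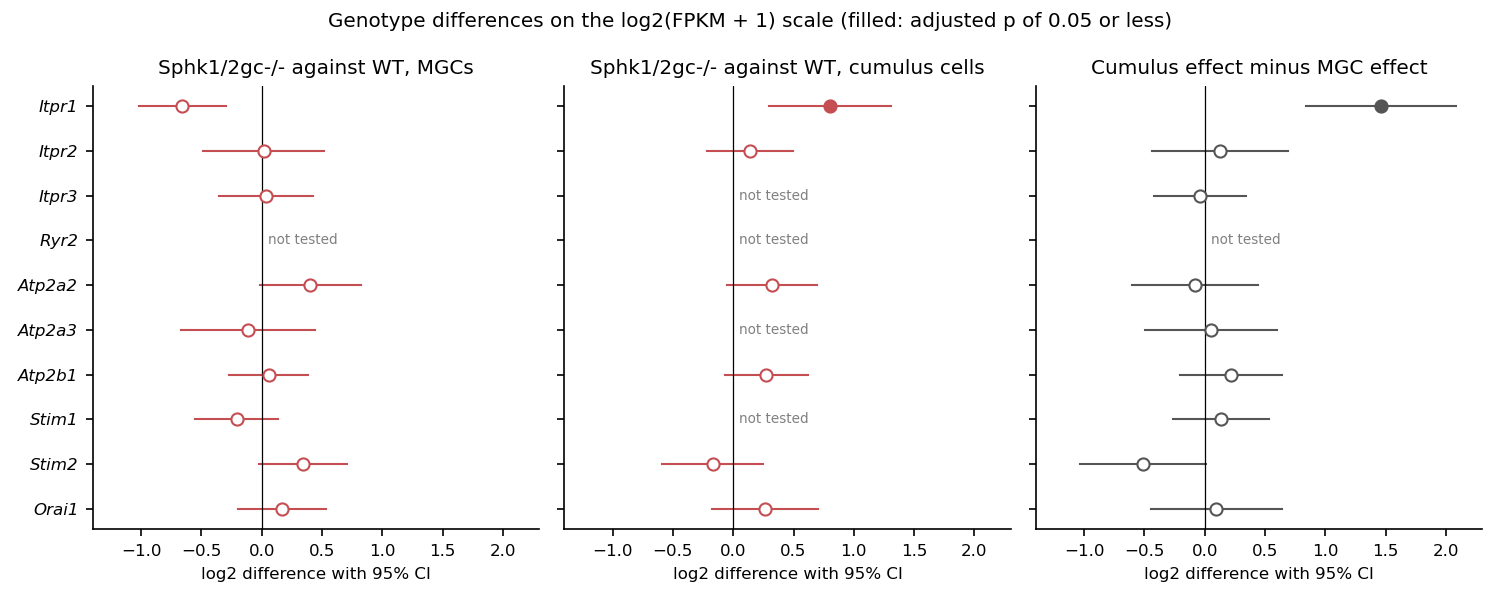
Log2 difference with its 95% interval for each gene (rows) between Sphk1/2gc-/- and WT in MGCs (left) and cumulus cells (middle), and the cumulus difference minus the MGC difference (right), with filled points at a limma adjusted p of 0.05 or less. Itpr1 lies at −0.66 in MGCs and 0.80 in cumulus cells, and is the gene whose difference between the cell types passes, at 1.46, while the intervals of the other genes reach across 0.

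The difference of the genotype effect between the cell types was then tested itself, in 1 model of all 12 libraries. Of the 9 genes tested, 1 passed at a limma adjusted p of 0.05 or less, where 3.93% of 15869 genes did. It was Itpr1, at 1.46 (SE 0.284, 95% interval 0.84 to 2.08, limma adjusted p = 0.0216), from −0.66 in MGCs and 0.80 in cumulus cells. The call was lost in 6 of the 12 fits without 1 library, those without WT MGC libraries 1 or 2, WT cumulus libraries 1 or 2 or Sphk1/2gc-/- cumulus libraries 2 or 3, where the limma adjusted p reached 0.0697, while the value stayed between 1.30 and 1.71 in all 12. Stim2 had the next largest difference, −0.51 (95% interval −1.04 to 0.010, limma adjusted p = 0.236), and the other 7 lay between −0.083 and 0.22 with intervals that include 0. Of these 7, Itpr3, Atp2a3 and Stim1 were below 0.5 FPKM in cumulus cells of both genotypes. Their cumulus differences with no filter were −0.00084, −0.063 and −0.072, held near 0 by the pseudocount. For these genes the test mainly reflects the MGC difference and cannot decide whether the effects differ. As a level, Itpr1 in MGCs was 13.8 times that in cumulus cells in WT mice and 3.14 times that in cumulus cells labelled Sphk1/2gc-/-, whereas for Stim1 these ratios were 13.9 and 14.2 and for Atp2a2 2.14 and 2.25.

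Pln encodes phospholamban, an inhibitor of SERCA2, and was at the limit of detection throughout in these libraries. The study itself measured Pln mRNA by qRT-PCR and found more of it in both granulosa cell types than in oocytes. It also found the protein in both cell types. In WT mice it reports that hCG raised the protein but not the mRNA, and it measured the mRNA in both genotypes 2 h post-hCG too. Pln had 0 to 5 reads in every library, which is 0 to 0.108 FPKM in MGCs of either genotype. In cumulus cells Pln ranged from 0 to 0.0403 FPKM in WT and from 0.0189 to 0.0385 FPKM with the Sphk1/2gc-/- label. A limit of 3 reads corresponds to 0.0550 to 0.0675 FPKM of Pln, so no direction can be read from these values, and its exons overlap those of Cep85l and Gm47644. Atp2a2 in the same libraries was between 43.5 and 155.0 FPKM.

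The wider set of calcium genes was examined by role, in 11 lists that together hold 104 genes beside the 10. In MGCs, 72 of them were tested and 0 passed at a limma adjusted p of 0.05, with a median log2 difference of 0.039, and the groups did not overlap for 10, where 16.9% of all genes did not. In cumulus cells 58 were tested, 7 were higher and 9 lower in the libraries labelled Sphk1/2gc-/-, with a median of −0.010 against −0.056 for all genes. That is 27.6% of those tested, against 22.3% of all genes. The difference between the cell types passed for 3 of 73, where 3.93% of all genes passed.

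Of the 58, 3 were also past a fold change of 2 and higher in cumulus cells, and 0 were past it and lower. Of all 12205 genes tested, 511 were called higher, and 981 (8.04%) were called in either direction. Plcd1, a phospholipase C that makes IP3, went from 0.783, 1.65 and 1.64 FPKM to 4.22, 5.06 and 4.62 FPKM (log2 difference 1.28, SE 0.189, limma adjusted p = 0.00388). Pkd2, polycystin-2, a calcium-permeable channel of the endoplasmic reticulum and cilium, went from 2.35, 2.46 and 2.49 FPKM to 4.82, 6.56 and 7.67 FPKM (1.08, SE 0.174, limma adjusted p = 0.00534). Mcu, the pore of the mitochondrial calcium uniporter, went from 1.65, 1.49 and 2.68 FPKM to 5.99, 6.05 and 4.69 FPKM (1.18, SE 0.190, limma adjusted p = 0.00537). None of the 3 overlapped between the genotypes. In MGCs the same genes had log2 differences of −0.34 (Plcd1), 0.17 (Pkd2) and −0.16 (Mcu), none of which passed.

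By role, 1 of 7 tested genes of IP3 production passed in cumulus cells (Plcd1), and of the other release channels both tested ones did, Pkd2 higher and Tmco1 lower by 0.60 on the log2 scale. Of the regulators of the release channels, Jph1, which ties the endoplasmic reticulum to the plasma membrane, was lower. Of 9 genes of mitochondrial uptake, Mcu was higher and its gatekeeper Micu2 lower, and of 9 calcium-binding proteins of the endoplasmic reticulum, Rcn1 was higher and the chaperone Hsp90b1 lower. Of 5 other store entry genes the channel Trpc6 was lower, and 0 of 4 other pumps and PMCA subunits and 0 of 1 sodium-calcium exchangers passed. Of 10 effectors of calmodulin, 3 were higher (Camk2d, Ppp3ca and Nfatc1) and 2 lower (Camk2g and Ppp3cc). No SERCA regulator and no voltage-gated channel was above the limit for a test in cumulus cells. Plcd1, Pkd2 and Mcu were named by a rule that takes list genes called in these same data. The other genes were named after their values were seen.

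**Figure D5:**
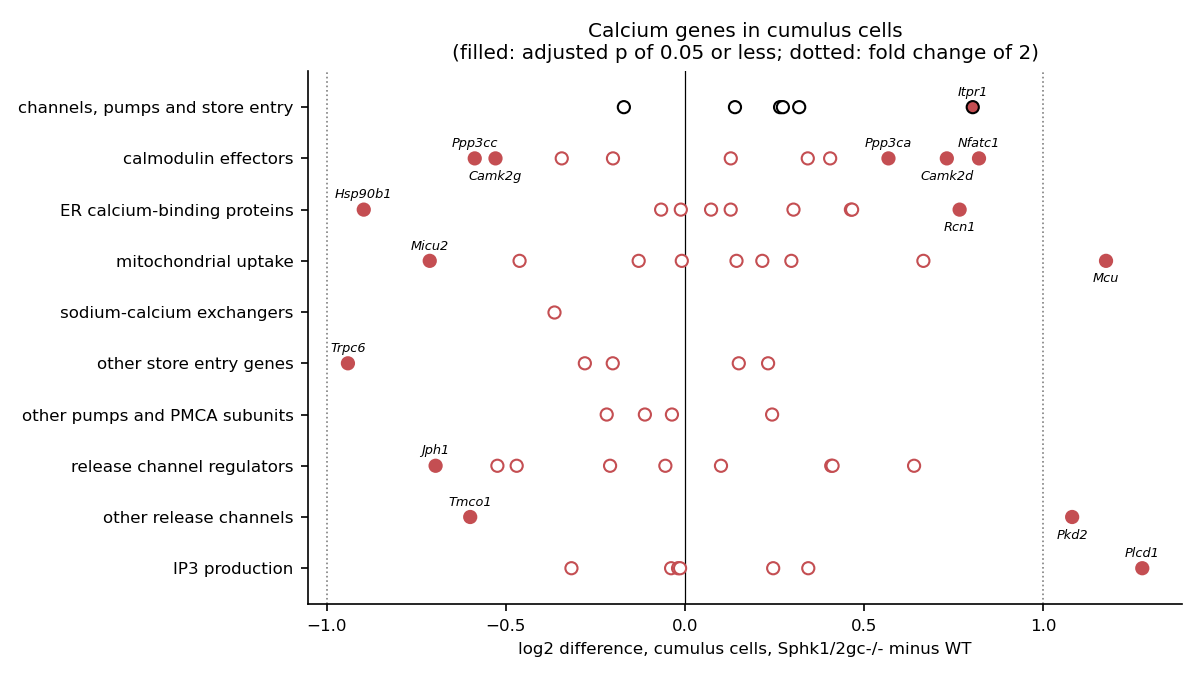
Log2 difference between the cumulus libraries labelled Sphk1/2gc-/- and WT (horizontal axis, log2(FPKM + 1)) for each tested calcium gene except 2 regulators of the release channels that are not reported here, by role, with filled points at a limma adjusted p of 0.05 or less and dotted lines at a fold change of 2. Plcd1, Pkd2 and Mcu lie beyond the line at the right (1.28, 1.08 and 1.18), and Itpr1 is the filled point of the top row at 0.80.

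The genes whose pattern was most like that of a store gene were sought for the 4 with the smallest adjusted p in any comparison, by the correlation of log2(FPKM + 1) over the 12 libraries among 15860 genes. For Itpr1 they were Atp1b1, a subunit of the sodium pump (r = 0.994), and Exoc6b (r = 0.992). For Stim1 they were Gm36936 (r = 0.998) and Pi4ka, a lipid kinase (r = 0.998 as well), and for Itpr3 they were Wiz and Ykt6 (r = 0.998 for both). Atp2a3 was most like Col18a1 (r = 0.998) and Pcdhga9 (r = 0.996). The 12 libraries fall into 2 cell types that differ in most genes, so these correlations mainly describe that division.

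The positions are those of GENCODE M21 on GRCm38. Itpr1 lies on chromosome 6, 108213096 to 108551109, plus strand, with 64 exon blocks over 18319 bases, and Itpr2 on the same chromosome, 146108299 to 146502223, minus strand. Itpr3 lies on chromosome 17, 27057304 to 27122223, plus strand, and Ryr2 on chromosome 13, 11553102 to 12106945, minus strand, with 107 exon blocks over 28790 bases. Atp2a2 lies on chromosome 5, 122453513 to 122502225, minus strand, Atp2a3 on chromosome 11, 72961169 to 72993044, plus strand, and Atp2b1 on chromosome 10, 98914406 to 99026143, plus strand. Stim1 lies on chromosome 7, 102267806 to 102437319, plus strand, Stim2 on chromosome 5, 53998499 to 54121057, plus strand, and Orai1 on chromosome 5, 123015074 to 123030456, plus strand. Values cover all exons of a gene, so isoforms are not told apart.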

How the data were processed

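MGC and cumulus cell RNA of both genotypes, taken 2 h post-hCG, was sequenced in 12 libraries, 3 per group, made with the NEBNext Ultra kit. The authors deposited FPKM values, in 1 table per cell type with 29101 genes for MGCs and 33137 for cumulus cells, of which 0 columns were left unused. The submitters' processing notes name HISAT2 and GRCm38. The counting tool, the annotation and the use of strand are not given in the sources used here, and the study states a limit of 2-fold and a P value but no test. Groups are those of the sample labels. Gene names came from GENCODE M21.

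FPKM are not counts, so limma 3.58.1 (R 4.3.3) with an intensity trend was run on log2(FPKM + 1) after removal of genes whose mean was under 0.5 FPKM in every group, with Benjamini-Hochberg adjustment over all of them. A call needed an adjusted p of 0.05 or less and a fold change of 2 or more, and the difference of genotype effects at the adjusted p alone. The code was tested on simulated data. Both tables entered 1 model for the cell types because FPKM times exon length was a whole number of steps, within 0.02 reads, for 93.9% to 94.9% of values under 60 reads in every library, which shows scaling within libraries. The step gave the read totals and a floor of 3 reads. Floors and reads cover counting error only.

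Libraries of the same number deviated together in MGCs (correlations of deviations from the group means 0.22, 0.158 and 0.224) but not in cumulus cells (−0.148, −0.0511 and 0.115). The labels name no shared animal, and the main fits took no pairing in either cell type. The replicate number was fitted as a block only as an alternative. Alternatives were a pseudocount of 0.1, no filter, a filter at 2 FPKM, median-ratio scaling, each library left out, the replicate number as a block, no limit on fold change, MGC libraries 1 and 2 only, and, added after seeing the data, pseudocount and filter both at 0.1 FPKM. All 10 genes are named, with Sphk1, Sphk2, Pln, calcium list genes called between genotypes and, for 4 genes, the 2 most alike. Of the list genes, 2 enter the counts but are not reported here singly. The members and lists were chosen with earlier results of these data known.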

Additional observations from a re-analysis of the deposited data

Results flagged for a closer look

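The effect of the genotype differed between MGCs and cumulus cells, by the test of that difference over all 12 libraries, for Itpr1 and for 3 of the other calcium genes. For Itpr1 the cumulus effect minus the MGC effect was 1.46 on the log2 scale (limma adjusted p = 0.0216; up to 0.0697 without 1 library), with all 3 Sphk1/2gc-/- libraries lower than WT in MGCs and all 3 libraries so labelled higher in cumulus cells. For Mcu it was 1.33 (SE 0.238, limma adjusted p = 0.0163), from −0.16 in MGCs and 1.18 in cumulus cells, and it was lost in 3 of 12 fits without 1 library (limma adjusted p up to 0.0547). For Trpc6, a receptor-operated calcium channel, it was −1.45 (SE 0.364, limma adjusted p = 0.0486), from 0.51 in MGCs and −0.94 in cumulus cells. This call was lost with a pseudocount of 0.1 (limma adjusted p = 0.0549), with pseudocount and filter both at 0.1 FPKM (0.0678), with no filter (0.0858) and in 9 of 12 fits without 1 library (up to 0.127). For Hsp90b1, a chaperone of the endoplasmic reticulum, it was −1.10 (SE 0.267, limma adjusted p = 0.0443), from 0.20 and −0.90. This call was lost with median-ratio scaling (limma adjusted p = 0.0613), pseudocount and filter both at 0.1 FPKM (0.0619), the replicate block (0.0773), no filter (0.0848) and in 9 of 12 fits without 1 library (up to 0.127). Trpc6 and Hsp90b1 were singled out after their values were seen. Whole libraries that stood apart are described above. Gene by gene, no rule was used to flag 1 library far from the others in its group of 3.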

How the results depend on the processing

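Over the 10 genes and the 5 other calcium genes followed, 274 values kept their direction and their side of the adjusted p of 0.05 under alternatives other than leaving out a library, 4 gained it, 11 lost it and 8 changed sign. Genes called in MGCs numbered 6 of 15279. They numbered 1 with no filter, 1 with the filter at 2 FPKM, 1 with median-ratio scaling and 477 over libraries 1 and 2 of each genotype, and 0 to 170 without 1 library (170 without Sphk1/2gc-/- library 3). In MGCs the replicate block, which treats libraries of the same number as pairs, called 3, and none of the 10 genes was called in any setting there. In cumulus cells 981 of 12205 were called, 1674 with a pseudocount of 0.1, 1727 with pseudocount and filter both at 0.1 FPKM, 2725 with no limit on the fold change and 757 to 1305 without 1 library. Of the 10 genes, 0 were called there, and 1, Itpr1, with each of the first 3 of these settings, with 0 to 1 without 1 library. Between the WT cell types 7733 were called, 12279 with pseudocount and filter at 0.1 FPKM and 12156 with no limit on the fold change. Of the 10 genes 6 were called, but 3 after median-ratio scaling and 5 to 6 without 1 library. The difference of genotype effects was called for 624 genes, 327 with no filter, 961 with median-ratio scaling, 369 with pseudocount and filter at 0.1 FPKM, 428 with the block and 108 to 1189 without 1 library. Itpr1 was the 1 member called, and 0 were without WT MGC libraries 1 or 2, WT cumulus libraries 1 or 2 or Sphk1/2gc-/- cumulus libraries 2 or 3 (Itpr1 at 1.30 to 1.49 there, limma adjusted p up to 0.0697). The block left the limma adjusted p of Itpr1 at 0.0575 in cumulus cells and of Hsp90b1 between the cell types at 0.0773. It moved no other value of the genes followed across 0.05. The causes were not tested.

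Signs turned where values were near 0. Over MGC libraries 1 and 2, Itpr2 was at −0.089 and Itpr3 at −0.093. After median-ratio scaling, the difference between the WT cell types was 0.057 for Atp2b1 and 0.041 for Stim2. With a pseudocount of 0.1, at either filter, the difference of genotype effects was −0.27 for Atp2a3 and −0.016 for Stim1. Without 1 library, the genotype difference in MGCs ran from −0.18 to 0.13 for Itpr2, −0.069 to 0.088 for Itpr3, −0.23 to 0.0999 for Atp2a3 and −0.71 to 0.019 for Plcd1. The difference of genotype effects ran from −0.089 to 0.068 for Itpr3, −0.22 to 0.040 for Atp2a2, −0.16 to 0.17 for Atp2a3 and −0.044 to 0.27 for Orai1. Depth limits Ryr2, Atp2a3 and Itpr3 in cumulus cells and Pln everywhere, where a few reads decide the values. Fits that leave 2 libraries in a group assume that these vary like the other groups.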
